A study of Mus musculus with 6 samples.

Results

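The 10 genes described here mark endothelial cells, the cells that line blood vessels. They were taken by symbol from a table of 54532 genes measured in mouse heart RNA: Fabp4, Ly6c1, Egfl7, Cldn5, Aqp1, Pecam1, Cdh5, Kdr, Flt1 and Tek. The low-value filter kept genes that reached 1 FPKM in 3 or more of the 6 samples, which left 10460 genes and all 10 of these. FPKM stands for fragments per kilobase of gene and per megaread of the library size the authors used. RNA came from the myocardium of hypertrophic hearts of wild-type C57BL/6 mice aged 18 weeks. In 3 samples the mice had received AAV9-anti-miR-199a TuDs, an adeno-associated viral vector that encodes tough decoys, which are RNAs built to occupy a microRNA so that it is not free to bind messenger RNA. In the 3 control samples they had received AAV9-EGFP, the same serotype carrying a fluorescent protein. The sex of the mice, the way hypertrophy was induced, the vector dose, the promoter that drove the decoy and the number of animals behind a sample are not given in the sources used here. The p-values below therefore measure the spread between samples, which may be technical.

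Endothelial cells are held together by cadherin and claudin junctions, sense growth factor through the VEGF receptors Kdr and Flt1, and are kept quiescent by angiopoietin signalling through Tek. In the heart most endothelial cells line capillaries, where they take up fatty acids for the neighbouring cardiomyocytes. In whole-tissue RNA, fewer endothelial cells and less RNA per endothelial cell cannot be told apart. The members fall into a pan-endothelial group (Pecam1, Cdh5, Kdr and Tek), a group chosen as short transcripts rich in capillaries (Fabp4, Ly6c1, Egfl7, Cldn5 and Aqp1), and Flt1.

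The decoys were directed at miR-199a, so its mature sequences are shown, with the seed (bases 2 to 8), the stretch that pairs with targets, in capitals. They are from RefSeq (GRCm38.p6), where each arm has the same sequence in Mir199a-2 (5p at chr1:162217844-162217866 and 3p at chr1:162217883-162217904, plus strand) and in Mir199a-1 on the minus strand of chromosome 9.
miR-199a-5p: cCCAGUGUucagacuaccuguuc
miR-199a-3p: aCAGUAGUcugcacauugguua
The 7-base matches to these seeds, ACACTGG for the 5p arm and ACTACTG for the 3p arm, were looked for on the transcript strand in 3′ UTRs of GENCODE M21 (GRCm38), the longest of each gene. Among all 21037 such UTRs, 13.4% held the 5p match and 7.71% the 3p match. Of the 10 members, 1 held a match: Flt1, with a 5p match at position 2827 of a 3971-base UTR. That UTR belongs to a transcript other than the gene's main one, ending inside the gene. The site, shown with its match in capitals, lies at chr5:147636285-147636314 on the minus strand.
Flt1 site: tcagagttgacACACTGGtaacagtagaat
The letters of neither match occur in the UTRs searched for the other 9 members, which include the 3 genes that rose.

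The libraries held 15.2 to 16.7 megareads recovered from the deposited values in the TuD samples and 18.0 to 18.2 in the controls. For a gene of 2 kilobases, 3 reads are then worth 0.0774 to 0.104 FPKM, which is below every member value. Intervals and floors from read counts cover counting error only. The libraries do not match on Y-linked transcripts: 4 such genes (Ddx3y, Eif2s3y, Kdm5d and Uty) summed to 0.0254 and 0.00711 FPKM in TuD replicates 1 and 2 and to 12.5 in TuD replicate 3, against 8.32 to 9.59 in the controls. TuD replicate 3 is the only TuD library that resembles the controls in this, and the members are given with and without it below. The myocardial label was checked with 10 cardiomyocyte markers, which summed to 38715 to 45426 normalised FPKM in the TuD samples and 34216 to 37237 in the controls.

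Of the 10 endothelial genes, 3 rose in the TuD hearts and 7 did not pass the test. Fabp4, Ly6c1 and Egfl7 were higher by +1.02, +1.09 and +0.85 on the log2 scale. The general endothelial genes Pecam1, Cdh5, Kdr and Tek, the junction gene Cldn5, the water channel Aqp1 and the VEGF receptor Flt1 did not pass. Values of single libraries are listed from replicate 1 to replicate 3. Each fold change is the log2 fold change, TuD minus control, of size-factor normalised FPKM plus 0.5 from a limma model, and a gene passed where its p, adjusted by Benjamini-Hochberg over the 10460 genes, was under 0.05. Over all tested genes, 14.8% passed as higher and 14.2% as lower, against 3 and 0 of the 10 members. All TuD values lay above all control values in 5 of 10 members (Fabp4, Ly6c1, Egfl7, Pecam1 and Tek) and in 23.5% of tested genes. No member had all TuD values below all control values, as 24.4% of tested genes did. The median log2 fold change of the members was 0.25, beside 0.01 over all tested genes.

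**Figure D1:**
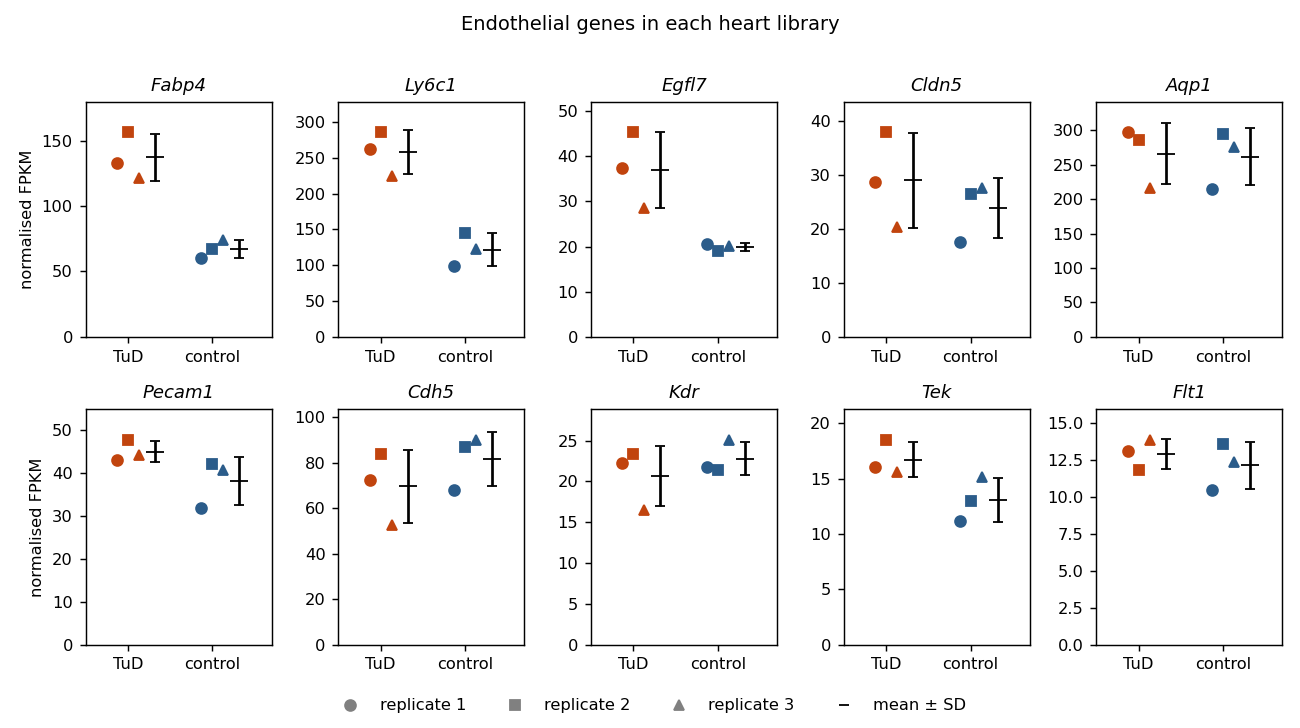
Normalised FPKM (y axis, linear from 0) of each member in 3 TuD and 3 control libraries, with symbols for replicates 1 to 3 and bars for the mean ± SD. The TuD libraries lie above the controls for Fabp4 (122 to 156, against 60.6 to 73.9), Ly6c1 (225 to 286, against 98.4 to 145), Egfl7, Pecam1 and Tek, and the groups overlap in the other 5 panels.

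Fabp4 encodes a fatty acid binding protein of capillary endothelium that is also abundant in adipocytes and present in macrophages. The gene (ENSMUSG00000062515) lies at chr3:10204088-10208576 on the minus strand of GRCm38. Fabp4 measured 133, 156 and 122 normalised FPKM in the TuD hearts, replicates 1 to 3, against 60.6, 67.3 and 73.9 in the controls, in the same order. The lowest TuD library was well above the highest control. The means were 137 ± 17.6 in TuD hearts and 67.3 ± 6.68 in controls (SD, n = 3 each), a log2 fold change of +1.02 ± 0.13 (SE; adjusted p = 0.00268, limma). With about 9443 reads per TuD library and 5793 per control library, counting error was small beside the spread between samples. Adipocyte markers moved with it: without Cidea, which heart muscle also expresses, the other 7 listed markers summed to 12.7, 4.58 and 4.06 normalised FPKM in the TuD libraries, against 0.845, 0.452 and 0.190 in the controls. Of these 7 only Cfd passed the low-value filter, and it rose (log2 fold change +2.72, adjusted p = 0.00419, limma). Cfd reached 1 FPKM in the TuD libraries alone (0.744, 0.276 and 0.0572 in the controls). The filter thus let Cfd in only through the group where it was high, and its p adds no separate support. The adipocyte marker sum was highest in TuD replicate 1, where Cfd alone was at 9.53 normalised FPKM, and Fabp4 was highest in TuD replicate 2. TuD replicate 2 was the highest TuD library for 8 of the members, Fabp4 among them. The order of the libraries therefore does not show which cells the Fabp4 RNA came from. Macrophage markers, which summed to 255 to 510 in TuD hearts and 248 to 307 in controls, had 0 of 9 tested genes past the threshold. The part of either cell type in the Fabp4 difference was not tested.

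Ly6c1 encodes a lipid-anchored surface protein of the Ly6 family found on mouse capillary endothelium, and the related Ly6C antigen also marks monocytes. The gene (ENSMUSG00000079018) lies at chr15:75044018-75048830 on the minus strand. Ly6c1 measured 262, 286 and 225 normalised FPKM in the TuD hearts, replicates 1 to 3, against 98.4, 145 and 122 in the controls, in the same order. Every TuD library exceeded every control, by a wide gap. The means were 258 ± 30.5 in TuD hearts and 122 ± 23.0 in controls (SD, n = 3 each), a log2 fold change of +1.09 ± 0.16 (SE; adjusted p = 0.00412, limma). Reads of this gene can be confused with those of a near copy, since 36.7% of the 50-base stretches of its main transcript also occur in other genes, chiefly in the monocyte gene Ly6c2. Ly6c2 itself was at 0.127 to 0.767 normalised FPKM in TuD hearts and 0.154 to 0.308 in controls, too low to enter the test. Adding it to Ly6c1 gave 226 to 286 in TuD hearts and 98.8 to 145 in controls. At its low level Ly6c2 could hardly change the sum. The sum therefore does not show how reads of the shared stretches were assigned.

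Egfl7 encodes a secreted protein that endothelial cells deposit in their matrix, and an intron of the gene holds the endothelial microRNA miR-126. It is ENSMUSG00000026921, at chr2:26580014-26593120 on the plus strand. Egfl7 measured 37.3, 45.3 and 28.5 normalised FPKM in the TuD hearts, replicates 1 to 3, against 20.5, 19.0 and 20.2 in the controls, in the same order. The controls were close together (coefficient of variation 3.94%) and the TuD libraries were spread (22.7%), but none of them reached down to the control range. The means were 37.0 ± 8.42 in TuD hearts and 19.9 ± 0.784 in controls (SD, n = 3 each), a log2 fold change of +0.85 ± 0.16 (SE; adjusted p = 0.00823, limma). Egfl7 overlaps Agpat2, a lipid synthesis gene on the opposite strand, and whether counting used strand is not given in the sources used here. Agpat2 was at 23.1 to 25.5 normalised FPKM in TuD hearts and 26.8 to 37.0 in controls (log2 fold change -0.38 ± 0.13 SE, adjusted p = 0.0614, limma), in the opposite direction to Egfl7. Gm20532, which shares 9.54% of the 50-base stretches of Egfl7, and the miR-126 hairpins had no reads in any library. These overlap Egfl7, so the lack of reads depends on how reads over overlapping genes were assigned. It does not show that they were absent.

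RefSeq start-site windows (250 bases before to 50 after the start, GRCm38.p6) were given for 7 of the 10 members, 10 windows in all, and not for Fabp4. For the other 2 genes that rose, the window nearest the start of the main transcript is shown, with matches to the ETS-family core AGGAAG and the TATA motif TATAAA in capitals. Both strands were searched, so the reverse complements CTTCCT and TTTATA count too. The Ly6c1 window is chr15:75048788-75049087, minus strand, and the Egfl7 window is chr2:26580833-26581132, plus strand.
Ly6c1 window: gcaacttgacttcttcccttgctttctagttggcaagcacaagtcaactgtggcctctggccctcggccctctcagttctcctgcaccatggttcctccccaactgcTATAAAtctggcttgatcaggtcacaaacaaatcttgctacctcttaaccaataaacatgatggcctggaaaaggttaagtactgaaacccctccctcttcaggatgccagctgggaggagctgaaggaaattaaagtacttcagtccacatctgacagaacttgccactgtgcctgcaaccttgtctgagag
Egfl7 window: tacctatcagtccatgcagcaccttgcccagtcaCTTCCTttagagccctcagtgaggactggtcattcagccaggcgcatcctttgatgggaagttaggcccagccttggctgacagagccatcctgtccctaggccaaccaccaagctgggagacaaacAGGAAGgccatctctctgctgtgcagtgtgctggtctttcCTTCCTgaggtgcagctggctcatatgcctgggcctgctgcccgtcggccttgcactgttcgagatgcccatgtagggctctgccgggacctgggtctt
ETS factors are known regulators of endothelial genes. The Egfl7 window held 3 AGGAAG matches, 216, 89 and 49 bases before the start, and this Ly6c1 window held none but a TATAAA match 143 bases before the start. A further Ly6c1 window, whose start lies 167 bases from that of the main transcript, held 3 AGGAAG matches, the nearer 2 of them overlapping. AGGAAG occurred in 5 of the 10 member windows, which belong to Egfl7, Ly6c1, Aqp1 and Flt1, and in 35.4% of all 32851 windows, and TATAAA occurred in 13.6% of all windows.

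The other 2 genes of the capillary-rich group did not pass. Cldn5, the main claudin of endothelial tight junctions (ENSMUSG00000041378, chr16:18776847-18778262, plus strand), measured 28.7, 37.9 and 20.3 normalised FPKM in the TuD libraries, against 17.6, 26.5 and 27.6 in the controls. The ranges overlapped, and Cldn5 had the widest spread of the members, with a coefficient of variation of 30.3% in TuD hearts and 23.1% in controls. Its log2 fold change was +0.25 with a 95% interval of -0.31 to 0.81 (adjusted p = 0.456, limma). Aqp1, the water channel of capillary endothelium that red blood cells also carry (ENSMUSG00000004655, chr6:55336432-55348555, plus strand), measured 297, 285 and 216 in the TuD hearts, against 215, 295 and 275 in the controls. The 2 ranges nearly coincided. The log2 fold change of Aqp1 was +0.02, with an interval of -0.37 to 0.41 (adjusted p = 0.929, limma), which does not reach the changes of Fabp4, Ly6c1 and Egfl7. Erythroid markers, by comparison, summed to 1374 to 3292 in TuD hearts and 1146 to 1612 in controls, with 2 of 5 tested genes (Hba-a1 and Hba-a2) higher.

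The adhesion genes Pecam1 and Cdh5 did not pass. Pecam1 (ENSMUSG00000020717, chr11:106654217-106750628, minus strand), an adhesion molecule of endothelium, platelets and leukocytes, measured 43.0, 47.7 and 44.1 normalised FPKM in the TuD libraries, against 31.7, 42.0 and 40.7 in the controls. The TuD libraries all lay above the controls, but by little, and control replicate 1 stood low. The log2 fold change of Pecam1 was +0.24 ± 0.13 (SE; adjusted p = 0.184, limma). Cdh5 (ENSMUSG00000031871, chr8:104101625-104144511, plus strand), the cadherin of endothelial adherens junctions, measured 72.4, 84.0 and 52.4 in the TuD hearts, against 67.9, 87.0 and 90.0 in the controls. The groups overlapped, with TuD replicate 3 the lowest of the 6 libraries. For Cdh5 the change was -0.24 ± 0.19 on the log2 scale (SE; adjusted p = 0.350, limma). Single libraries moved both values: Pecam1 stood at +0.11 without control replicate 1, and Cdh5 at -0.05 without TuD replicate 3 and at -0.38 without TuD replicate 2 or control replicate 1.

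The receptor genes did not pass either. Kdr (ENSMUSG00000062960, chr5:75932827-75978458, minus strand), the main signalling receptor for VEGF-A, measured 22.3, 23.3 and 16.5 normalised FPKM in the TuD libraries, against 21.8, 21.4 and 25.1 in the controls, a log2 fold change of -0.15 ± 0.15 (SE; adjusted p = 0.478, limma). TuD replicates 1 and 2 lay within the control range and TuD replicate 3 below it. Flt1 (ENSMUSG00000029648, chr5:147561604-147726011, minus strand), which binds VEGF-A tightly and whose soluble form holds it away from Kdr, measured 13.1, 11.8 and 13.8 in the TuD hearts, against 10.4, 13.6 and 12.4 in the controls. Those ranges overlapped, and the log2 fold change was +0.09 with a 95% interval of -0.20 to 0.38 (adjusted p = 0.609, limma). The gene total does not separate the transcript that carries the miR-199a-5p match from the other Flt1 transcripts. Tek (ENSMUSG00000006386, chr4:94739289-94874976, plus strand), the angiopoietin receptor, measured 16.0, 18.5 and 15.6 in the TuD hearts, against 11.2, 12.9 and 15.1 in the controls. All TuD libraries lay above the controls, TuD replicate 3 by little. The log2 fold change of Tek was +0.35 ± 0.13 (SE), short of the threshold (adjusted p = 0.0818, limma).

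Of the pan-endothelial members 0 of 4 passed, with a median log2 fold change of 0.05, and of the capillary-rich members 3 of 5, with a median of 0.85. Within a library, the mean log2 level of the capillary-rich members minus that of the pan-endothelial members was 1.64, 1.68 and 1.52 in TuD replicates 1, 2 and 3, against 0.99, 1.09 and 0.96 in the controls. The 2 groups of libraries did not overlap, and the difference between their means was 0.60. No p is given for this score because its genes were chosen with results of these data known. Set against Pecam1 in the same library, Fabp4 stood at 3.04 ± 0.262 in TuD hearts and 1.78 ± 0.158 in controls, and Ly6c1 at 5.73 ± 0.541 in TuD hearts and 3.19 ± 0.226 in controls (SD, n = 3 each). The ratio of Egfl7 to Pecam1 was 0.867, 0.950 and 0.646 in TuD replicates 1, 2 and 3, against 0.649, 0.453 and 0.495 in the controls, so that TuD replicate 3 lay just inside the control range. The ratio of Cdh5 to Pecam1 ran the other way, at 1.19 to 1.76 in TuD hearts and 2.07 to 2.21 in controls.

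**Figure D2:**
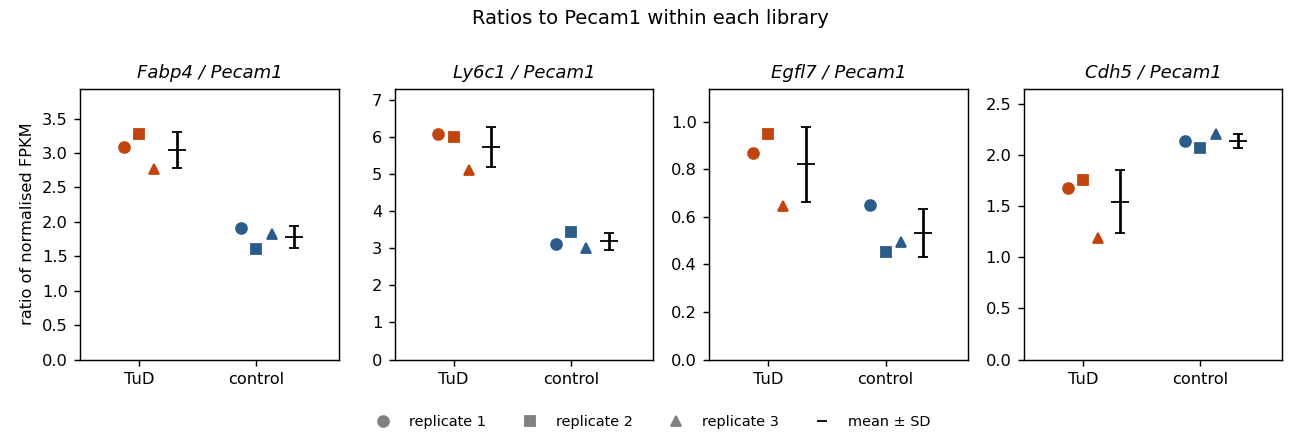
Ratio of the normalised FPKM of 4 members to that of Pecam1 in the same library (y axes, linear from 0), for 3 TuD and 3 control libraries, with bars for the mean ± SD. The TuD points lie above the controls for Fabp4 and Ly6c1, meet them for Egfl7 (lowest TuD ratio 0.646, highest control ratio 0.649) and lie below them for Cdh5.

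Libraries differed in their endothelial RNA within groups as well. TuD replicate 3 was the lowest TuD library for 8 of 10 members, TuD replicate 2 the highest for 8, and control replicate 1 the lowest control for 8. The pan-endothelial members summed to 154, 173 and 129 normalised FPKM in the TuD libraries, against 133, 163 and 171 in the controls, and these ranges overlapped. The capillary-rich members summed to 758, 810 and 612 in the TuD hearts, against 412, 552 and 519 in the controls, with no overlap. TuD replicate 3, the TuD library with Y-linked transcripts, exceeded all controls for Fabp4, Ly6c1 and Egfl7, at 1.81, 1.85 and 1.43 times the control mean, and for Pecam1, Tek and Flt1. It was at 0.642 times the control mean for Cdh5 and 0.725 times for Kdr. Without TuD replicate 3 the log2 fold changes of Fabp4, Ly6c1 and Egfl7 were +1.10, +1.19 and +1.03, and these passed in limma. Those of Cldn5 (+0.49), Tek (+0.40), Pecam1 (+0.26), Aqp1 (+0.17), Flt1 (+0.05), Kdr (+0.01) and Cdh5 (-0.05) did not. With the presence of Y-linked transcripts as a covariate, which rests the comparison on that library, Fabp4 (+0.86, adjusted p = 0.0258, limma) and Ly6c1 (+0.90, 0.0400) still passed and Egfl7 did not (+0.51, 0.0659). Because the TuD libraries without these transcripts have no control counterpart, their difference and that between treatments cannot be told apart in them.

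Levels can be compared between genes only per length, and the length used matters here. FPKM divides by the deposited gene length, which for Fabp4 is 4489 bases, the whole span of the gene with its introns, whereas its main transcript has 896. By the deposited lengths Fabp4 is longer than Cdh5 (4203 bases) and not a short gene. Rescaled to the main transcript of each gene in GENCODE M21, Fabp4 was the most abundant member, at 687 ± 88.2 in TuD hearts and 337 ± 33.4 in controls. In TuD hearts Ly6c1 (512 ± 60.6) and Aqp1 (266 ± 43.9) followed, each below its neighbour in all libraries, whereas in controls Aqp1 (262 ± 41.6) and Ly6c1 (242 ± 45.8) overlapped. Egfl7 stood at 95.3 ± 21.7 in TuD hearts, overlapping Pecam1 (85.2 ± 4.60), which in turn overlapped Cdh5 (73.2 ± 16.8). In controls the order was Cdh5 (85.9 ± 12.6), Pecam1 (72.3 ± 10.7) and Egfl7 (51.3 ± 2.02), with Egfl7 below the others in every library. Kdr, Cldn5 and Flt1 were at 25.3 to 31.6 in TuD hearts and 23.7 to 34.7 in controls, and Tek was lowest at 16.9 ± 1.58 in TuD hearts and 13.2 ± 1.99 in controls (SD, n = 3 each).

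Fold changes followed transcript length over the whole table, which touches the 3 genes that rose. Across genes, which are not independent replicates, the log2 fold change correlated with log10 main transcript length at -0.446 (10453 genes with a length) and with log10 deposited length at -0.386. When genes were ordered by main transcript length and cut into deciles, the shortest decile (up to 890 bases) held Ly6c1. There the median log2 fold change was 0.56 and 46.5% passed as higher. In the decile from 891 to 1378 bases, with Fabp4, the median was 0.33 and 33.7% passed as higher. Egfl7 and Cldn5, of 1391 and 1416 bases, lie in the next, with a median of 0.18 and 19.3%. In the longest decile, with Kdr and Flt1, the median was -0.22, 3.82% passed as higher and 27.3% as lower. By main transcript length, 9 of the 10 members lay above the median of their own decile and Cdh5 below it. By deposited length 7 did, with Cdh5, Cldn5 and Aqp1 below.

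**Figure D3:**
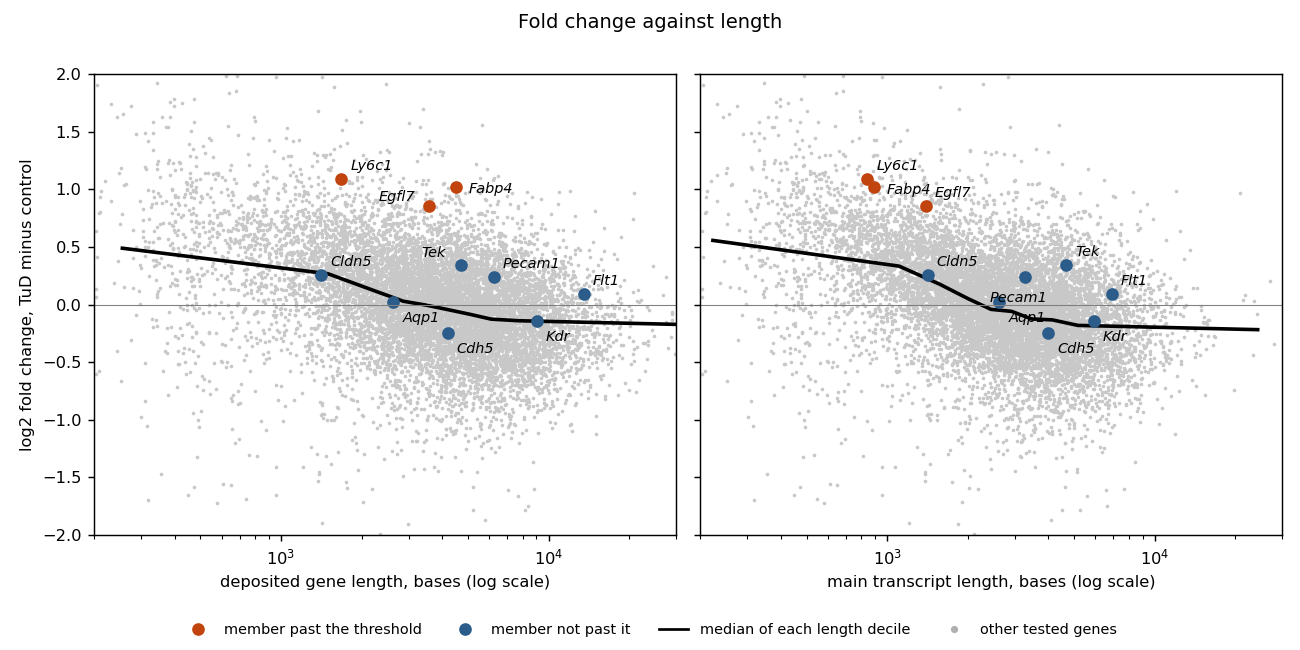
Log2 fold change, TuD minus control (y axis), against deposited gene length (left) and main transcript length (right) in bases on log axes, with 1 grey point per tested gene, members in colour and a line through the median of each decile of genes. The line falls with length in both panels (0.56 to -0.22 on the right), Fabp4 lies at 4489 bases on the left and 896 on the right, and 113 and 105 genes lie outside the axes on the left and right.

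After each library's trend with main transcript length was removed, Fabp4 (+0.60, adjusted p = 0.00609), Ly6c1 (+0.65, 0.0141) and Egfl7 (+0.63, 0.0196) still passed in limma, and so did Tek (+0.51, 0.0432). With the trend in GC content removed as well, Ly6c1 (+0.68, 0.0167) and Egfl7 (+0.73, 0.0116) passed, and Fabp4 did not (+0.20, 0.222). The main transcript of Fabp4 has 40.3% GC, the lowest of the members, and those of Egfl7 and Cldn5 have 58.5% and 60.5%. The difference between the capillary-rich and pan-endothelial members was 0.60 without a correction, 0.20 with that for transcript length and 0.16 with that for length and GC content. When each library was rescaled to TPM, a unit in which every library has the same total, which set the median over the whole table at -0.33, Fabp4 (+0.63), Ly6c1 (+0.70) and Egfl7 (+0.47) passed as higher. Under that scaling Cdh5 (-0.63, adjusted p = 0.0176) and Kdr (-0.53, 0.0125) passed as lower in limma, and Pecam1, Tek, Cldn5, Aqp1 and Flt1 had negative values (-0.36 to -0.03) that did not pass.

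**Figure D4:**
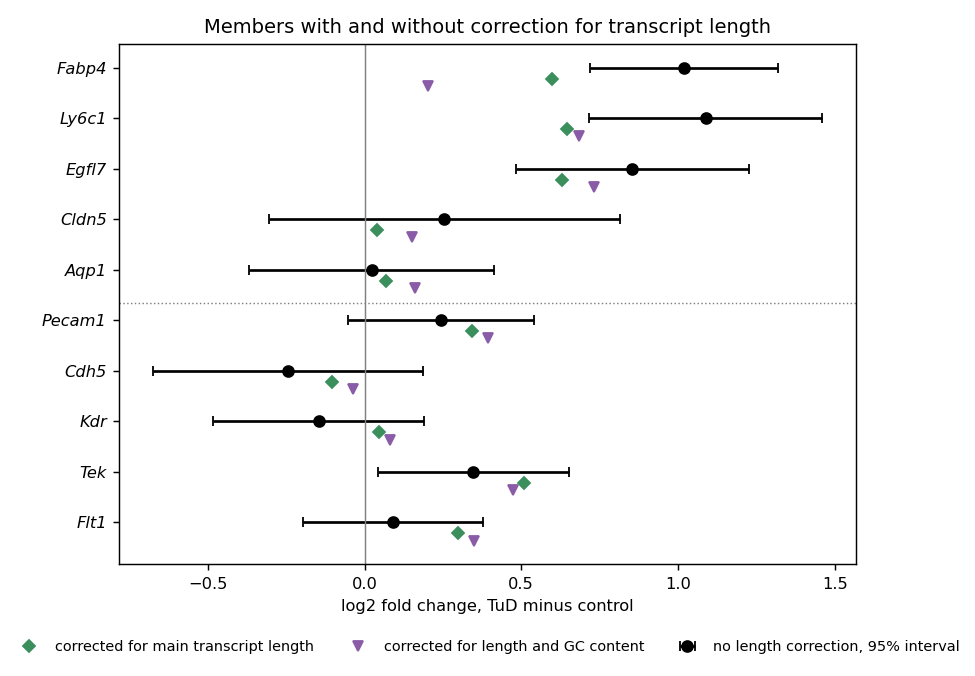
Log2 fold change, TuD minus control (x axis), of the 10 members: black points with 95% intervals without a length correction, green diamonds corrected for main transcript length and purple triangles corrected for length and GC content. A dotted line parts the capillary-rich members from the rest. Fabp4 moves from +1.02 to +0.20 with both corrections, Ly6c1 and Egfl7 stay at +0.63 or above, and Cdh5 stays below 0.

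The members were set beside 105 other endothelial genes in 6 lists, of which 99 were tested. Of these, 15 rose (15.2%) and 11 fell (11.1%), against 14.8% higher and 14.2% lower over all tested genes, and 73 did not pass. Their median log2 fold change was 0.15. The pooled shares are close to those of the table, but the lists differed. Those of VEGF and angiopoietin ligands and coreceptors and of junction partners held 0 of the genes that rose. They held 3 and 6 of the genes that fell. The pooled counts moved with single libraries: 25 rose without TuD replicate 3 and 5 without control replicate 1, and 2 fell without control replicate 2 or 3. Other capillary-enriched genes had 6 of 18 higher and 0 lower, with a median of 0.39. Apln, also in the ligand list, measured 3.91, 5.31 and 1.79 normalised FPKM in the TuD libraries, against 7.76, 6.46 and 6.23 in the controls. All its TuD values lay below the controls, short of the threshold (log2 fold change -0.91, adjusted p = 0.0532, limma). In 9 of the 20 alternatives Apln passed as lower. Ly6a, another Ly6 family surface protein, measured 210, 251 and 191 normalised FPKM in the TuD libraries, against 98.9, 106 and 113 in the controls. Its groups were far apart (log2 fold change +1.03, adjusted p = 0.00258, limma), and it passed under all 20 alternatives run. Gpihbp1, the protein that carries lipoprotein lipase to the capillary surface, was higher at 74.8 ± 6.36 in TuD hearts and 47.4 ± 7.06 in controls (+0.66, adjusted p = 0.0107, limma). It lost the call after either transcript length correction, with TPM and with the Y-linked covariate. The carbonic anhydrase gene Car4 (+0.95), the metalloproteinase inhibitor gene Timp4 (+0.81), Ctla2a and Tm4sf1 were also higher. Car4 lost its call in 8 of the 20 alternatives, among them the correction for transcript length (+0.68, adjusted p = 0.0723, limma), and Timp4 in 3.

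Other pan-endothelial genes had 6 of 35 higher and 0 lower, with a median of 0.18. Adgrl4, an adhesion receptor of endothelium, was at 17.5 ± 1.21 in TuD hearts and 11.8 ± 1.82 in controls (log2 fold change +0.56, adjusted p = 0.0160, limma). Ramp2, the adrenomedullin coreceptor, was at 21.9 ± 2.98 in TuD hearts and 14.5 ± 2.20 in controls (+0.58, adjusted p = 0.0226). Gng11 (+0.74), Clec14a (+0.49), Ecscr and Myct1 were the others that rose. Of the 20 alternatives, Adgrl4 lost its call in 5, Clec14a in 6, Ramp2 in 8 and Gng11 in 10. After the correction for transcript length Ramp2 stood at +0.28 (adjusted p = 0.137, limma) and Gng11 at +0.33 (0.194), and Gng11 was at +0.47 without TuD replicate 2. The arterial list had 1 higher (Stmn2, +0.79) and 1 lower (Unc5b, a netrin receptor, -0.63) of 11, with a median of 0.03. Stmn2 lost its call in 2 of the 20 alternatives and Unc5b in 9, and Unc5b was at -0.39 without TuD replicate 3 and, after the correction for transcript length, at -0.43 (adjusted p = 0.180, limma). In the venous, lymphatic and endocardial list, 2 of 12 were higher, the natriuretic peptide receptor Npr3 (+0.66, adjusted p = 0.00980, limma) and Plvap (+0.55, 0.0337). In that list 1 gene was lower, the lymphatic transcription factor Prox1 (-0.62, 0.0345). Lyve1, another lymphatic gene of the list, went the other way, with all TuD values above the controls. It fell short of the threshold (+0.41, adjusted p = 0.0503, limma) and passed in 6 of the 20 alternatives. Npr3 lost its call in 1 of the 20 alternatives, Plvap in 8 and Prox1 in 9. Npr3 measured 1.38, 1.54 and 1.45 normalised FPKM in the TuD libraries, against 0.815, 0.645 and 0.747 in the controls. It thus passed the low-value filter only through the TuD libraries, close to the cut of 1 FPKM, and its p adds no separate support.

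Genes that act on the receptors and junctions of the members fell or did not pass. Of 14 VEGF and angiopoietin ligands and coreceptors, 0 were higher and 3 lower, with a median of -0.11. Vegfa, the ligand of Kdr and Flt1, measured 34.1, 19.3 and 24.1 normalised FPKM in the TuD libraries, against 34.7, 57.2 and 39.2 in the controls. The highest TuD library came close to the lowest control (log2 fold change -0.75, adjusted p = 0.0465, limma). The VEGF coreceptors Nrp1 (5.50 ± 1.13 in TuD hearts, 9.13 ± 0.783 in controls; -0.70, adjusted p = 0.0124) and Nrp2 (-0.78, 0.0141) fell as well. Nrp1 lost its call after the correction for deposited length (-0.53, adjusted p = 0.0521, limma) and for transcript length and GC content (-0.53, 0.0635). Of the 20 alternatives, Nrp2 lost its call in 4 and Vegfa in 8. Of 15 tested junction partners, 6 fell and 0 rose, with a median of -0.03. Among those that fell were the catenin genes Jup (-0.55), Ctnnb1 (-0.46) and Ctnna1 (-0.39), the polarity gene Pard3 (-0.51) and the claudin gene Cldn12 (-0.36). The catenin gene Ctnnd1 did not pass and went the other way (+0.20, adjusted p = 0.227, limma), with all TuD values above the controls. Jup lost its call in 6 of the 20 alternatives, Ctnnb1 in 7 and Ctnna1 and Pard3 in 9 each. Cardiomyocytes also express Vegfa and the catenins, and the share of each cell type in these values was not measured. The 15 genes that rose had a median main transcript length of 1987 bases and the 11 that fell one of 3752, beside 3410.5 for the 73 that did not pass. After the correction for transcript length, 13 rose and 2 fell.

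**Figure D5:**
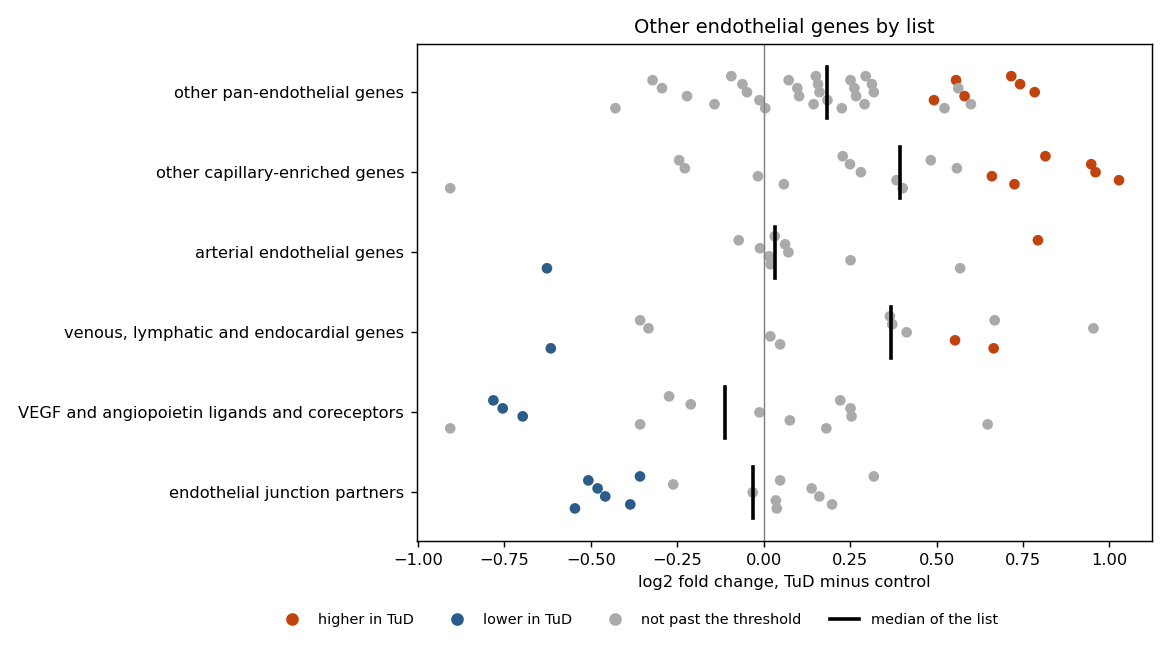
Log2 fold change, TuD minus control (x axis), of the tested genes of 6 lists of other endothelial genes, with a bar at the median of each list. Each list has 1 point per gene, and a gene in more than 1 list is shown in each. Capillary-enriched genes have the highest median (0.39, 6 of 18 higher, 0 lower), and the ligand and junction lists have no gene higher and 3 and 6 lower.

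Markers of the cells around the capillaries moved in several directions. Of 9 tested pericyte and smooth muscle markers, Rgs5 (+1.01, adjusted p = 0.00605, limma) and Kcnj8 (+0.60, 0.0246) rose, and Abcc9 (-0.49, 0.0472) and Notch3 (-0.56, 0.00912) fell. The list summed to 189 to 328 normalised FPKM in TuD hearts and 191 to 237 in controls. Cardiomyocyte markers had 4 of 10 higher (Tnnt2, Tnni3, Pln and Myl2) and fibroblast markers 3 of 10 higher and 1 lower. Over all tested genes the shares were 14.8% higher and 14.2% lower. Of 3 tested cell division genes, Pcna was higher (+0.40, adjusted p = 0.0429, limma). Mcm2 (-0.46, 0.0702), with all TuD values below the controls, and Mcm5 (-0.14, 0.733) did not pass. Lymphocyte markers summed to 1.05 to 2.27 in TuD hearts and 1.55 to 1.84 in controls, mesothelial markers to 1.30 to 1.82 in TuD hearts and 1.16 to 1.5 in controls, and Schwann cell markers to 1.60 to 2.08 in TuD hearts and 1.23 to 2.78 in controls. Lrrn4 (mesothelial) and Hapln1 (endocardial) were at 0 in all libraries. The part of these markers in the values of the members was not tested.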

How the data were processed

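The authors deposited FPKM values per gene with gene lengths, made from total RNA of frozen hearts with an NEBNext Ultra kit, per the labels' protocols. Reads were aligned with HISAT2 2.0.5 and counted with featureCounts 1.5.0-p3, with mm10 as the build, per the submitters' processing notes. Which annotation and strand setting they used is not given in the sources used here. FPKM times length, in steps set by the library size, was whole to 0.05 of a read in 100% of values above 0, which gave the reads. The library size behind the values was 0.943 to 1.01 times the recovered reads in the TuD samples. In the controls it was 1.04 to 1.06 times, so the deposited values were not divided by these reads alone.

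Each library was scaled by a median-of-ratios size factor (0.989 to 1.01) taken over genes with an FPKM of at least 1 in at least 3 samples. Those genes were tested with limma (lmFit and eBayes with a trend, two-sided) on log2 of normalised FPKM plus 0.5. Samples were grouped by their labels. The members and lists were chosen with earlier results of these data known. Beyond the members, the rule named up to 4 genes per list by p-value, and Ly6c2 as a near copy of Ly6c1. Agpat2, Cfd, Ecscr, Myct1, Ctla2a, Tm4sf1, Cldn12 and Ctnnd1 were added after their values were seen. So were Mcm2, Mcm5 and the cell type markers named as passing. The main transcript of a gene is the GENCODE M21 transcript with the best APPRIS principal tag, then protein-coding before other types, then the longest; the 10 members have the same coordinates there. Alternatives numbered 17 planned and 3 added after seeing the data: both transcript-based corrections and size factors over all genes with reads. Corrections used lowess with a span of 0.3. The pipeline was tested on simulated data. The fits ran in limma 3.58.1 (R 4.3.3), and tables and figures in pandas 2.3.3, numpy 2.4.6 and matplotlib 3.10.9 (Python 3.11.15).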

Additional observations from a re-analysis of the deposited data

How the results depend on the processing

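Across the 20 alternatives, Ly6c1 passed as higher in 20, Fabp4 and Egfl7 in 19 each, and the exceptions are given above. The number of members higher stayed at 2 to 4, and the number lower was 0 except under TPM, where it was 2. Leaving out 1 library at a time gave log2 fold changes of 0.93 to 1.10 for Fabp4, 0.94 to 1.21 for Ly6c1 and 0.71 to 1.03 for Egfl7, all past the threshold. Counts over the table moved more. Higher genes numbered 1550, against 442 under TPM, 989 without a filter, 638 with the Y-linked covariate, 1024 and 733 with the corrections for transcript length and for length and GC content, and 864 to 1730 without 1 library. Lower genes numbered 1489, against 4214, 947 and 543 under the same first 3 settings, 924 with the length and GC correction and 763 to 1577 without 1 library. Of the other endothelial genes, 15 rose, against 3 under TPM, 4 without a filter, 1 with the covariate, 25 without TuD replicate 3, and 5, 8 and 9 without control replicate 1, 2 or 3. There 11 fell, against 25 under TPM, 3 without a filter, 2 with deposited or transcript length corrected, 3 with length and GC content, 5, 6 and 10 without TuD replicate 1, 2 or 3, and 6, 2 and 2 without control replicate 1, 2 or 3. The capillary-rich minus pan-endothelial difference of 0.60 was 0.51 with quantile normalization and with the covariate, 0.39, 0.20 and 0.16 with the corrections for deposited length, transcript length, and length and GC content, and 0.57 to 0.64 without 1 library. The cause of these shifts was not tested. With the replicate number as a block, 1447 genes were higher and 1195 lower, and members higher stayed at 3. Log2 values of same-numbered TuD and control samples correlated at 0.962, 0.9485 and 0.9636. Those of differently numbered TuD and control samples correlated at 0.9497 to 0.9659, so same-numbered samples did not stand apart. Whether the numbers mark a pairing is not given in the sources used here. With 3 samples a group, the intervals of Cldn5 and Cdh5 leave changes in either direction within reach.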
